A study of Mus musculus with 11 samples.

Results

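A set of 10 genes of the translation machinery was followed in ribosome footprints of mouse liver, chosen by Ensembl identifier from the 22019 genes of the deposited table. All 10 were found there: Eef1a1 (ENSMUSG00000037742), Eef2 (ENSMUSG00000034994), Eef1b2 (ENSMUSG00000025967), Eef1g (ENSMUSG00000071644), Eef1d (ENSMUSG00000055762), Eif5a (ENSMUSG00000078812), Etf1 (ENSMUSG00000024360), Gspt1 (ENSMUSG00000062203), Pabpc1 (ENSMUSG00000022283) and Eif4a1 (ENSMUSG00000059796). The gene names came with this selection, because the deposited table holds identifiers and no names. Eif4a1 encodes an initiation factor and Pabpc1 a poly(A)-binding protein, so the selection is wider than elongation and termination. Livers came from male wild-type mice on a high-fat, high-sugar (HFHS) diet or on chow, the control diet. Each liver lysate was digested with RNase I, and fragments of about 60 nt (disomes, protected by 2 ribosomes packed together) or about 30 nt (monosomes, protected by a lone ribosome) were sequenced. There were 2 HFHS and 3 chow disome libraries, and 3 HFHS and 3 chow monosome libraries. Strain, age and length of feeding are not given in the labels, nor do they say whether every sample is its own animal. The p-values below therefore rest on the spread of these samples, part of which may be technical.

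During elongation, the GTPase eEF1A, encoded by Eef1a1, brings aminoacyl-tRNA to the ribosome, and a complex of the products of Eef1b2, Eef1d and Eef1g reloads it with GTP. The GTPase eEF2 then moves the ribosome on by a codon, and eIF5A, which carries the modified lysine hypusine, helps peptide bonds form at slow sequences such as runs of proline. At a stop codon eRF1, encoded by Etf1, recognises the codon together with the GTPase eRF3, encoded by Gspt1. PABPC1 coats the poly(A) tail and touches both initiation and termination factors, and eIF4A1 is the RNA helicase of the cap-binding complex. In mammals the mRNAs of eEF1A, eEF2, the eEF1B subunits and PABPC1 belong to the terminal oligopyrimidine (TOP) class, which starts with a run of pyrimidines and whose translation depends on the kinase complex mTORC1. A disome marks a ribosome that has run up against another, so a gene's disome level set against its monosome level describes how often ribosomes on it were packed together.

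The stretches around the annotated start of transcription are shown for the 5 genes with exactly 1 start in the RefSeq promoter table (GRCm38.p6), because 3 of them (Eef1a1, Eef2 and Eef1b2) shared a drop in 1 monosome library described below, and the other 2 (Gspt1 and Eif4a1) did not show it. Each stretch runs 5′ to 3′ on the gene's strand, from 20 bases before the start to 30 bases after it. Capitals mark matches, on either strand, to the TATA-box letters TATAAA and the variant TATATAA, to the pyrimidine run CTCTTCC, to CCGGAAGT as bound by ETS factors, or to TGACGTCA as bound by CREB. These letters were picked after the sequences had been read.
Eef1a1, chr9:78481695-78481744, minus strand: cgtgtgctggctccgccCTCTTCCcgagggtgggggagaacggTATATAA
Eef2, chr10:81176611-81176660, plus strand: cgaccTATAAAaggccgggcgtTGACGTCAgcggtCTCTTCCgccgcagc
Eef1b2, chr1:63176811-63176860, plus strand: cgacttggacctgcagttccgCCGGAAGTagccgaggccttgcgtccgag
Gspt1, chr16:11254296-11254345, minus strand: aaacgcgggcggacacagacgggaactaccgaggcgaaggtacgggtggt
Eif4a1, chr11:69672394-69672443, minus strand: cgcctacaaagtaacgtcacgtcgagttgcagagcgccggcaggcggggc
The pyrimidine run CTCTTCC lay in the stretches of Eef1a1 and Eef2, and was present in 2.09% of the same stretches over all 32851 starts of the table. CCGGAAGT, in the stretch of Eef1b2, was present in 1.52% of them, and TGACGTCA, in that of Eef2, in 0.347%. TATAAA was present in 1.45% and TATATAA in 0.256%. The stretches of Gspt1 and Eif4a1 held none of these letters. The letters were picked from these same stretches, so which genes hold them says nothing about the drop. The shares only describe how common the letters are. In Eef1a1 CTCTTCC began 3 bases before the annotated start, and TATATAA began at base 24 after it. In Eef2 CTCTTCC began at base 16 after the start, and TATAAA began before it, at base -15. The pyrimidine run thus came before the TATA letters in Eef1a1 and after them in Eef2. A match is a description of the sequence and not a binding site, and annotated starts need not be the starts used in liver. Eif5a had 6 starts in the table and is not printed, and Eef1g, Eef1d, Etf1 and Pabpc1 are named only.

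Total counts ran from 235748 to 238837 in HFHS disomes, 147212 to 279331 in chow disomes, 1196240 to 1612324 in HFHS monosomes and 795145 to 1248781 in chow monosomes. Libraries are named by the sample barcode in their column name, and levels are in CPM, counts brought to a common library size by TMM scaling over all 11 libraries. With total counts as library size, 1 count was worth 3.18 to 6.33 CPM in disomes and 0.656 to 1.33 CPM in monosomes. The printed levels took only genes past the filter into the library size, so 1 count was worth slightly more there. Levels were not compared between genes, since no coding lengths were used. Over 2200 genes with a mean of at least 50 CPM in monosomes, both chow libraries of barcode AGCTA were unlike the rest of their class, with Pearson r of 0.816 and 0.821 in disomes and of 0.816 and 0.821 in monosomes, against 0.957 in disomes and 0.978 in monosomes between the remaining chow libraries. How reads shared with near copies were counted is not given, and Eef1a1, Eif4a1, Gspt1 and Pabpc1 have close paralogs or processed copies in the genome, so their values are uncertain to that extent.

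Together the 10 genes took 0.894% ± 0.079 of all counts in HFHS disomes (SD, n = 2), 0.891% ± 0.15 in chow disomes (n = 3), 0.470% ± 0.16 in HFHS monosomes (n = 3) and 0.580% ± 0.064 in chow monosomes (n = 3). The share was higher in each of the 5 disome libraries, from 0.750% to 1.05%, than in any of the 6 monosome libraries, from 0.284% to 0.652%. Eef1a1 alone held 65.0% and 69.6% of the genes' counts in HFHS disomes and 61.5% to 64.3% in chow disomes, against 48.8% to 58.2% in HFHS monosomes and 49.6% to 55.9% in chow monosomes. The HFHS monosome library GATCA had the lowest share, 0.284% (95% Wilson interval 0.274 to 0.293), against 0.555% (0.543 to 0.568) in CTAGA and 0.570% (0.559 to 0.582) in GCATA, the other libraries of its group. These intervals cover counting error only. None of the 10 genes was among the 10 most abundant of any library, and Eef1a1 ranked 19th to 25th in disomes and 33rd to 98th in monosomes.

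**Figure D1:**
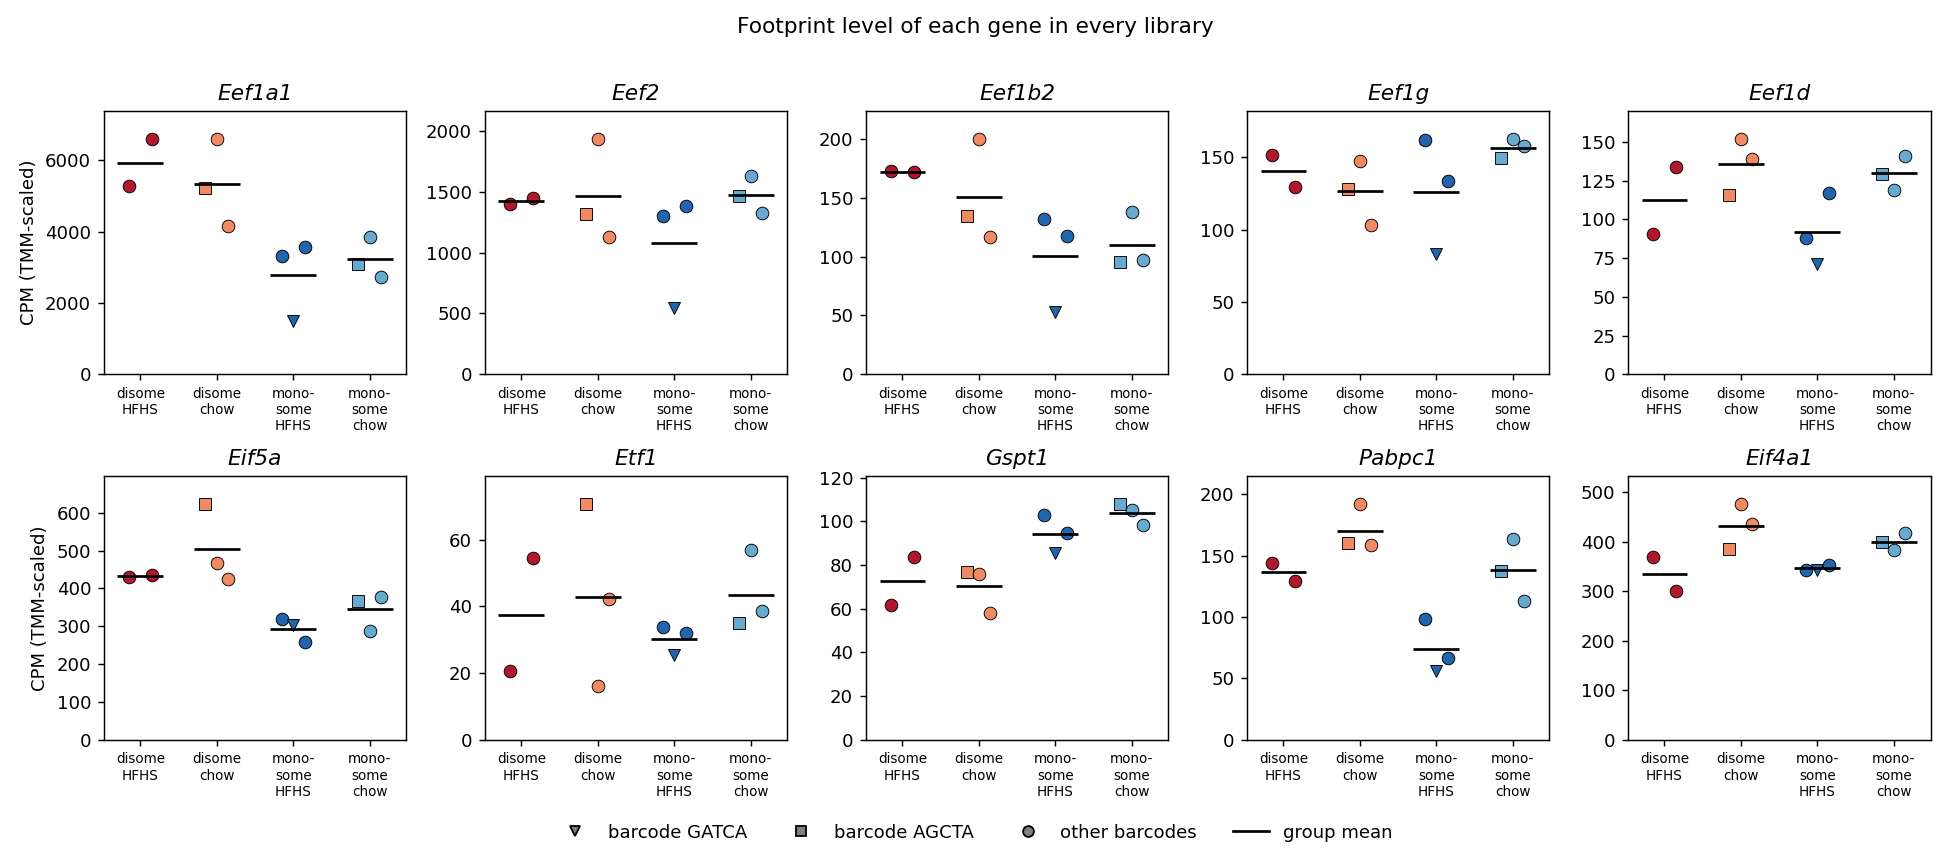
Level of each gene in CPM (TMM-scaled, linear axes that start at 0 and differ between panels) in every library, by group, with the group mean as a line. In the panels of Eef1a1, Eef2, Eef1b2 and Eef1g the HFHS monosome library GATCA (triangle) lies below all other monosome libraries, while in those of Eif5a and Eif4a1 it lies among the HFHS libraries.

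Monosome footprints of the elongation GTPases were spread more widely within the HFHS group than within chow. Eef1a1 had 3324 (CTAGA), 1493 (GATCA) and 3561 (GCATA) CPM in HFHS monosomes, against 3862 (ATCGT), 3103 (AGCTA) and 2729.9 (CGTAA) CPM in chow monosomes. Eef2 had 1304, 547 and 1386 CPM in the HFHS libraries in the same order, against 1631, 1462 and 1328 CPM in the chow libraries. For both genes CTAGA and GCATA lay within or close to the chow range and GATCA lay far below every other monosome library. These were well counted genes, with 1654 counts of Eef1a1 and 606 of Eef2 in GATCA.

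The exchange factor subunits showed the same library low, to differing depths. Eef1b2 had 131 (CTAGA), 53.2 (GATCA) and 118 (GCATA) CPM in HFHS monosomes, against 137 (ATCGT), 95.7 (AGCTA) and 97.2 (CGTAA) CPM in chow monosomes. Eef1g had 162, 83.0 and 134 CPM in the HFHS libraries, against 163, 149.6 and 158 CPM in the chow libraries. GATCA was the lowest library for both, CTAGA lay within the chow range for both, and GCATA lay within it for Eef1b2 and below it for Eef1g. Eef1d had 87.6, 71.3 and 117 CPM in the HFHS libraries, against 119, 129 and 141 CPM in the chow libraries, so all 3 HFHS libraries were below chow, GCATA by a narrow gap.

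The mean of the other 2 HFHS monosome libraries over GATCA was 2.31 for Eef1a1, 2.46 for Eef2, 2.34 for Eef1b2, 1.78 for Eef1g, 1.47 for Pabpc1, 1.44 for Eef1d and 1.30 for Etf1. It was 1.15 for Gspt1, 1.01 for Eif4a1 and 0.951 for Eif5a. GATCA was the lowest of the 6 monosome libraries for 8 of the 10 genes, all but Eif5a and Eif4a1. The share of all genes with GATCA lowest was not counted, so this number is a description only. Set among the 2200 well counted genes by its log2(CPM + 1) in GATCA minus the mean of the other 5 monosome libraries, Eef2 lay at the 1.23rd percentile, Eef1a1 at the 1.64th and Eef1b2 at the 1.86th, with values of -1.37, -1.14 and -1.09. Pabpc1 lay at the 2.77th percentile, Eef1g at the 3.32nd and Eef1d at the 4.32nd. By the same measure the chow library ATCGT lay above the mean of the other 5 for these 6 genes, from the 76.7th percentile (Eef1d) to the 99.5th (Pabpc1). Its values were 0.50 for Eef1a1, 0.52 for Eef2, 0.53 for Eef1b2, 0.28 for Eef1g, 0.16 for Eef1d and 0.86 for Pabpc1. The values of GATCA and ATCGT are each taken against a mean that holds the other. Against the other chow monosome libraries alone, ATCGT stood at -0.18 for Eef1d and 0.08 for Eef1g. For the rest of the 6 it stood at 0.23 (Eef2), 0.39 (Pabpc1), 0.41 (Eef1a1) and 0.51 (Eef1b2). The 6 genes with the lowest values in GATCA are those whose mRNAs are known as TOP mRNAs, a split made after the values were seen and not tested. Etf1, outside these 6, came next in GATCA at the 6.41st percentile (-0.58). In ATCGT it lay at the 99.3rd percentile (0.78), so the pattern was not confined to the 6. For Pabpc1, Eef1d and Etf1 every HFHS library was below every chow library, so their values in GATCA and ATCGT also hold the difference between the groups. The low values of Pabpc1 and Eef1d were not confined to GATCA. Pabpc1 lay at the 1.59th percentile in GCATA (-0.68) and Eef1d at the 6.05th in CTAGA (-0.36). In the remaining HFHS library the values were -0.01 for Pabpc1 (CTAGA) and 0.14 for Eef1d (GCATA). Across these 2200 genes GATCA correlated with the other HFHS monosome libraries at r = 0.967 and 0.973. In GATCA 42 genes (1.91%) lay more than 2-fold below their mean in those, against 4 genes for CTAGA and 3 for GCATA. By the same measure within chow monosomes there were 24 genes for ATCGT, 25 for CGTAA and 0 for AGCTA, the library unlike the rest. ATCGT and CGTAA were each set against a mean that holds AGCTA. More than 2-fold above the other chow libraries lay 1% of the genes in AGCTA, 0.273% in ATCGT and 0% in CGTAA. No disome library of barcode GATCA was analysed here, so whether disomes of these genes were low in that sample could not be measured.

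**Figure D2:**
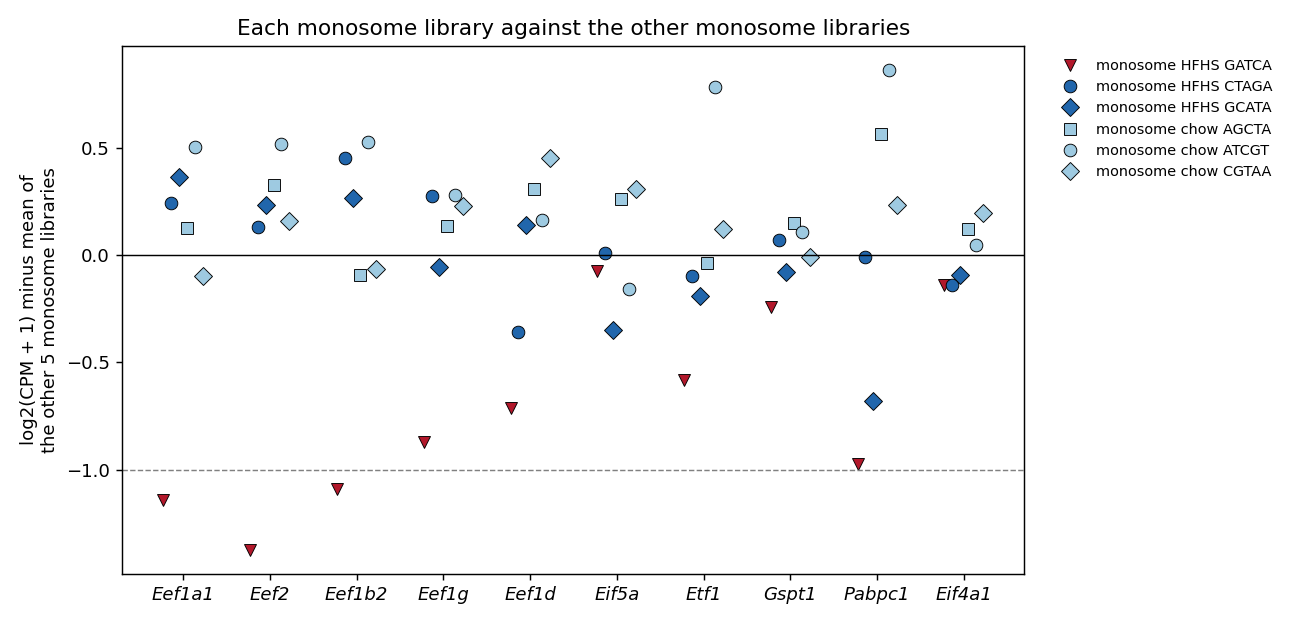
For each gene, log2(CPM + 1) in each monosome library minus the mean of the other 5 monosome libraries; the dashed line marks a value of -1. GATCA (red triangles) lies below -1 for Eef1a1, Eef2 and Eef1b2, and above -0.25 for Eif5a, Gspt1 and Eif4a1.

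With respect to diet, monosome footprints of 1 of the 10 genes changed: Pabpc1, which encodes the poly(A)-binding protein, was lower on HFHS. The call rule, edgeR's quasi-likelihood test with an adjusted p below 0.05, called 1.63% of all 6754 genes tested lower and 3.02% higher. Pabpc1 had 98.4 (CTAGA), 56.0 (GATCA) and 66.6 (GCATA) CPM in HFHS monosomes, against 164 (ATCGT), 137 (AGCTA) and 113 (CGTAA) CPM in chow monosomes. The groups did not overlap. Its log2 fold change was -0.89 ± 0.19 (SE), to 0.539 of the chow level, with an edgeR adjusted p of 0.00857. Without GATCA it was -0.73 ± 0.18 (edgeR adjusted p = 0.0135), so the call did not rest on that library, and without the chow library AGCTA it was -0.90 ± 0.22 (edgeR adjusted p = 0.0281). When the chow library ATCGT was left out it missed the threshold (log2 fold change -0.73, edgeR adjusted p = 0.0595), as it did when the HFHS library GCATA was left out (-0.81, edgeR adjusted p = 0.0747). These livers were measured in bulk and without mRNA levels, so less mRNA, fewer ribosomes per mRNA and fewer cells of a type cannot be told apart.

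The elongation genes were not called for diet in monosomes, and the sizes of their changes moved when 1 library was left out, GATCA among them. The log2 fold change was -0.19 ± 0.41 for Eef1a1 and 0.12 ± 0.12 without GATCA, which turned its sign. For Eef2 it was -0.43 ± 0.41, and -0.11 ± 0.13 without GATCA. For Eef1b2 it was -0.11 ± 0.35, and 0.19 ± 0.16 without GATCA, which turned its sign as well. Leaving out the chow library ATCGT also turned Eef1b2, to 0.11 ± 0.40, and brought Eef1a1 to -0.03 ± 0.49. For Eef1g it was -0.29 ± 0.19, and -0.06 ± 0.16 without GATCA. Eef1d stood at -0.46 ± 0.17 (edgeR adjusted p = 0.117), and at -0.31 ± 0.16 without GATCA; it passed the threshold only without GCATA among the alternatives tried (-0.68, edgeR adjusted p = 0.0186). Eif5a, whose footprints were even across the HFHS libraries (318, 303 and 258 CPM, against 288, 368 and 378 CPM in chow), stood at -0.22 ± 0.14 (edgeR adjusted p = 0.489).

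Of the termination genes, Etf1 had 33.8 (CTAGA), 25.3 (GATCA) and 31.9 (GCATA) CPM in HFHS monosomes, against 56.8 (ATCGT), 35.0 (AGCTA) and 38.5 (CGTAA) CPM in chow monosomes. The HFHS libraries were all below the chow libraries, but on 28 to 48 counts, against 26 to 67 in chow, the log2 fold change of -0.53 ± 0.23 did not pass (edgeR adjusted p = 0.219). Its partner Gspt1 had 103, 85.7 and 94.5 CPM in the HFHS libraries, against 105, 108 and 98.2 CPM in the chow libraries, a log2 fold change of -0.12 ± 0.15 (edgeR adjusted p = 0.778). The helicase gene Eif4a1 had 344, 344 and 353 CPM in the HFHS libraries, against 383, 400.3 and 417 CPM in the chow libraries. Its groups did not overlap and its HFHS libraries were nearly equal, GATCA included, yet the log2 fold change was only -0.19 ± 0.13 (edgeR adjusted p = 0.507).

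All 10 log2 fold changes were below 0 in monosomes, with a median of -0.25 beside -0.02 over all genes tested. Without GATCA 8 were below 0 and 2 above, with a median of -0.14, and without the chow library ATCGT 9 were below 0 and 1 above, with a median of -0.24. In 4 of the 10 genes (Eef1d, Etf1, Pabpc1 and Eif4a1) every HFHS library was below every chow library, a pattern that 11.1% of all genes tested showed.

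**Figure D3:**
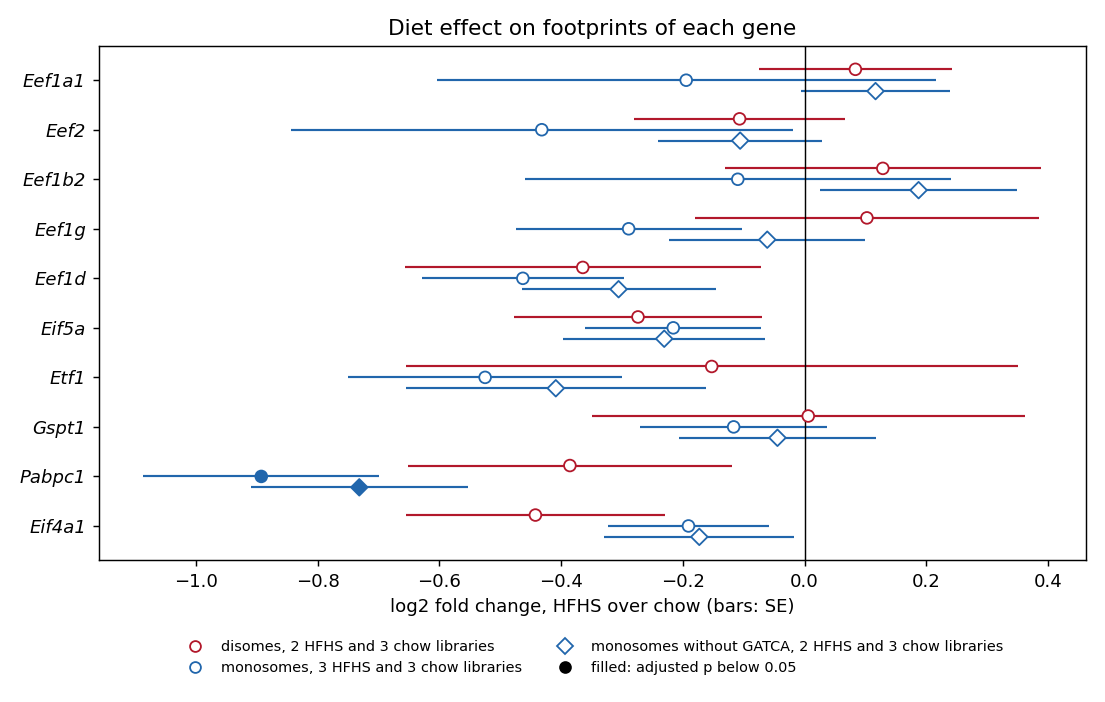
Log2 fold change of HFHS over chow for each gene in disomes (red circles), monosomes (blue circles) and monosomes without the library GATCA (blue diamonds), with SE bars; filled symbols have an edgeR adjusted p below 0.05. The monosome value of Pabpc1 is filled with and without GATCA, and the values of Eef1a1, Eef2, Eef1b2 and Eef1g move toward or past 0 without it.

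In disomes none of the 10 genes was called for diet (edgeR quasi-likelihood test), where 1.14% of 2804 genes tested were called lower and 1.82% higher. DESeq2 called none of the 9 genes it gave an adjusted p for (all but Etf1), and 1 gene, Eif4a1, had an unadjusted edgeR p below 0.05 (0.0377). Eif4a1 had 369.8 (CTAGA) and 301 (GCATA) CPM in HFHS disomes, against 385 (AGCTA), 475 (ATCGT) and 437 (CGTAA) CPM in chow disomes. Both HFHS libraries were below chow, and the log2 fold change was -0.44 ± 0.21 (edgeR adjusted p = 0.317). Pabpc1, the gene called in monosomes, had 144 and 129.7 CPM in HFHS disomes, against 160.3, 192 and 159 CPM in chow disomes. It too did not overlap between diets, with a log2 fold change of -0.39 ± 0.27 (edgeR adjusted p = 0.58) on 25 to 49 counts a library. These 2 genes were the only ones of the 10 with every HFHS library below chow, against 11.4% of all genes tested.

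Disomes of the elongation genes differed by less than the spread between libraries. Eef1a1 had 5275 (CTAGA) and 6604 (GCATA) CPM in HFHS disomes, against 5239.8 (AGCTA), 6588 (ATCGT) and 4170.2 (CGTAA) CPM in chow disomes, a log2 fold change of 0.08 ± 0.16. Eef2 had 1401 and 1448 CPM in HFHS, against 1321, 1934 and 1132 CPM in chow, a log2 fold change of -0.11 ± 0.17. The HFHS libraries of both genes lay inside or at the edge of the chow range. Eef1b2 had 173 and 172 CPM in HFHS, against 135, 199.8 and 116 CPM in chow, and Eef1g had 152 and 129.7 CPM in HFHS, against 128, 148 and 104 CPM in chow. Their log2 fold changes were 0.13 ± 0.26 and 0.10 ± 0.28. Eef1d (90.4 and 134 CPM in HFHS, against 115, 152 and 139 CPM in chow) stood at -0.36 ± 0.29, and Eif5a (431 and 435 CPM in HFHS, against 622, 467 and 424 CPM in chow) at -0.27 ± 0.20.

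Disome counts of the termination genes were few, and a change of the size seen in monosomes was not detectable at this depth. Etf1 had 5 and 13 counts in HFHS disomes, against 11, 4 and 13 in chow disomes (log2 fold change -0.15 ± 0.50). Gspt1 had 15 and 20 counts in HFHS, against 12, 19 and 18 in chow (0.01 ± 0.36). The median over the 10 genes was -0.13 in disomes, beside -0.03 over all genes tested.

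Whether a gene's disomes responded to diet differently from its monosomes was tested in 1 model over all 11 libraries. None of 7236 genes passed (0% called, edgeR), 358 had an unadjusted p below 0.05, and none of the 10 genes was among those 358. DESeq2 called none of the 10 either. The difference of diet effects was above 0 for 9 of the 10 genes, with a median of 0.34 (log2). Neither the count nor the median was stable when 1 library was left out. Without GATCA 8 of 10 were above 0 and the median was 0.04, and without the HFHS disome library GCATA 5 of 10 were above 0 and the median was 0.08. The median was 0.17 without the chow monosome library ATCGT and 0.19 without the chow disome library CGTAA. For Eef1a1 the difference was 0.37 ± 0.51, and 0.02 ± 0.24 without GATCA. For Eef2 it was 0.41 ± 0.54, and 0.05 ± 0.22 without GATCA. Pabpc1 had the highest value of the 10, 0.59 ± 0.31 (edgeR adjusted p = 1.00), and 0.39 ± 0.32 without GATCA. Its monosome decrease on HFHS is therefore not shown to differ from its disome value.

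Disomes were then set against monosomes of the same gene within each diet, on the scale of the fit for that diet, a ratio that does not depend on coding length. Scaling sets the average gene near 1, so a ratio above 1 means more disomes per monosome than the average gene. In HFHS livers 2 of the 10 genes were called higher in disomes (Eif5a and Pabpc1), and in chow livers 2 (Eef1a1 and Eif5a), with none called lower in either diet. Among all genes 11.5% of 7437 tested were called higher and 13.6% lower in HFHS, and 21.6% of 4713 higher and 23.3% lower in chow. With 2 of 10 in each diet, the 10 genes lay near the share of all genes. How many of all genes had ratios on the same side of 1 in every barcode, as some genes below, was not counted. The median log2 ratio of the 10 genes was 0.35 in HFHS, beside -0.07 over all genes tested, and 0.18 in chow, beside -0.01. The prefixes of the column names (PD49 and PF43) follow the footprint class. Whether the 2 classes were also prepared or sequenced apart is not given, so a difference of that kind cannot be told apart from one between classes.

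Eef1a1 carried more disomes than its monosome level in every barcode. Within barcodes, its disome level over its monosome level was 1.58 (CTAGA) and 1.86 (GCATA) in HFHS, and 1.81 (AGCTA), 1.76 (ATCGT) and 1.62 (CGTAA) in chow. All 5 were above 1 and the diets overlapped. In HFHS the barcode was not taken to pair libraries. The HFHS ratios, here and for the genes below, therefore only set libraries with the same barcode side by side. In chow the log2 ratio was 0.80 ± 0.14 (edgeR adjusted p = 8.92e-05), and it was 0.76 ± 0.16 without the disome library AGCTA (edgeR adjusted p = 0.000318) and 0.73 ± 0.17 without the monosome library AGCTA (edgeR adjusted p = 0.000523). When all 11 libraries were fitted together it was 0.72 and missed the threshold (edgeR adjusted p = 0.153). In HFHS the log2 ratio was 1.09 ± 0.48 and not called (edgeR adjusted p = 0.222) with GATCA, a barcode without a disome library here. Without GATCA it was 0.79 ± 0.14 and called (edgeR adjusted p = 0.000515). DESeq2 called it in HFHS with GATCA included (adjusted p = 0.00702).

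Eif5a, which itself acts on slowly elongating ribosomes, also carried more disomes than its monosome level. Its ratio within barcodes was 1.35 (CTAGA) and 1.69 (GCATA) in HFHS, and 1.81 (AGCTA), 1.67 (ATCGT) and 1.19 (CGTAA) in chow, above 1 in all 5. Every disome library (424 to 622 CPM) was above every monosome library (258 to 378 CPM), a pattern not counted over all genes. The log2 ratio was 0.57 ± 0.17 in HFHS (edgeR adjusted p = 0.0117) and 0.61 ± 0.16 in chow (edgeR adjusted p = 0.00208). The HFHS call was lost without either disome library (edgeR adjusted p = 0.0837 without CTAGA and 0.0848 without GCATA). The chow call was lost without the disome library AGCTA, where the log2 ratio was 0.40 (edgeR adjusted p = 0.0632). Without the filter on low counts both missed the threshold (0.43 in HFHS, edgeR adjusted p = 0.0784, and 0.44 in chow, edgeR adjusted p = 0.0649). That setting shifted the median of all genes by -0.32 and -0.26, but over a larger set with low-count genes added. The shift is therefore not a change of scale for the same genes.

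Pabpc1 had ratios of 1.45 (CTAGA) and 1.95 (GCATA) in HFHS, and 1.25 (AGCTA), 1.21 (ATCGT) and 1.49 (CGTAA) in chow, above 1 in all 5. It was called in HFHS, with a log2 ratio of 0.89 ± 0.26 (edgeR adjusted p = 0.0121), and not in chow, at 0.37 ± 0.19 (edgeR adjusted p = 0.117). Without GATCA the HFHS value was 0.74 ± 0.26 (edgeR adjusted p = 0.0457). It missed the threshold without the disome library CTAGA (edgeR adjusted p = 0.165) or GCATA (edgeR adjusted p = 0.079). The diets are not shown to differ, since the difference tested above did not pass. Eef1b2 was also above 1 in all 5 barcodes, at 1.31 (CTAGA) and 1.46 (GCATA) in HFHS, and 1.51 (AGCTA), 1.50 (ATCGT) and 1.27 (CGTAA) in chow. Its log2 ratio was 0.76 ± 0.38 in HFHS (edgeR adjusted p = 0.191; 0.47 ± 0.22 without GATCA) and 0.50 ± 0.22 in chow (edgeR adjusted p = 0.056). With the barcode as a block in chow, a pairing only weakly shown for ATCGT and CGTAA, Eef1b2 passed, at 0.51 (edgeR adjusted p = 0.0197).

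The remaining genes lay near or below the average gene. Gspt1 was below 1 in all 5 barcodes, at 0.596 (CTAGA) and 0.887 (GCATA) in HFHS, and 0.765 (AGCTA), 0.744 (ATCGT) and 0.631 (CGTAA) in chow. Its log2 ratio was -0.38 ± 0.27 in HFHS and -0.51 ± 0.24 in chow (edgeR adjusted p = 0.325 and 0.0772), and in chow it passed as lower under 3 of 13 alternatives. Eef1g was likewise below 1 in all 5, from 0.933 to 0.971 in HFHS and from 0.697 to 0.936 in chow, with a log2 ratio of 0.15 ± 0.27 in HFHS (-0.06 ± 0.23 without GATCA) and -0.25 ± 0.20 in chow. Eef2, the partner GTPase of eEF1A, stayed close to 1, from 1.05 to 1.07 in HFHS and from 0.906 to 1.22 in chow, with log2 ratios of 0.40 ± 0.51 in HFHS (0.09 ± 0.15 without GATCA) and 0.06 ± 0.15 in chow. Eef1d ran from 1.03 to 1.15 in HFHS and from 0.956 to 1.32 in chow, and Eif4a1 from 0.854 to 1.07 in HFHS and from 1.03 to 1.28 in chow. Etf1 could not be placed, with ratios of 0.605 and 1.71 in HFHS and of 0.290 to 2.16 in chow on 4 to 13 disome counts a library.

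**Figure D4:**
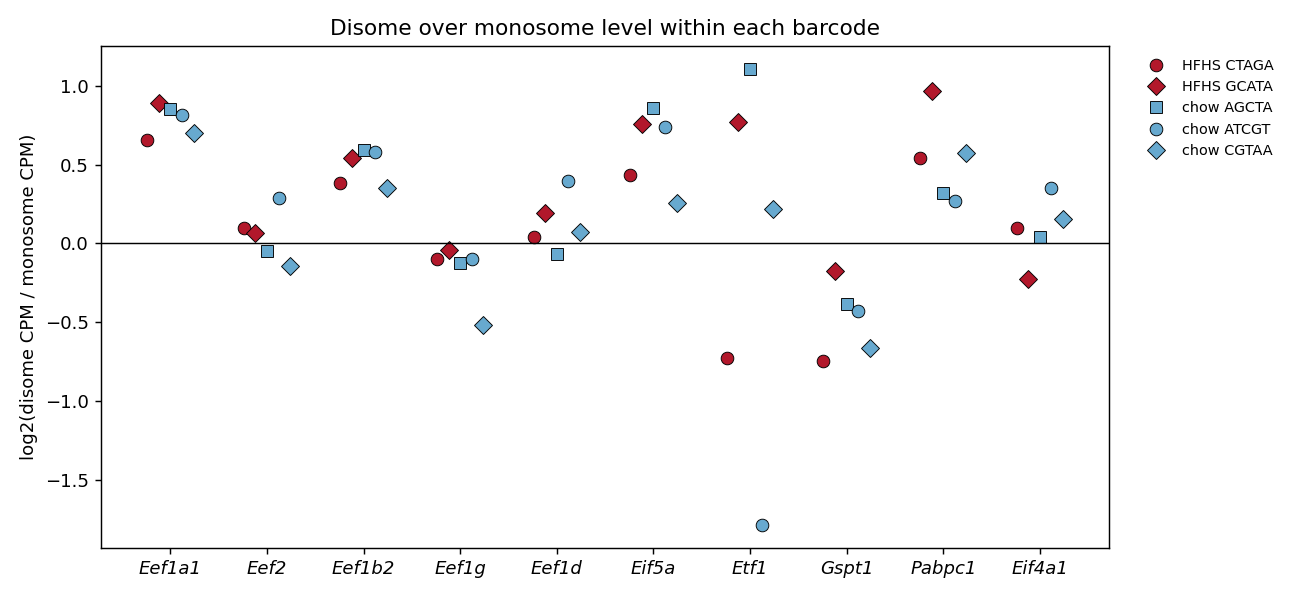
Log2 of disome CPM over monosome CPM for each gene within each barcode that has both libraries, on the scale of the fit within each diet (HFHS red, chow blue). In HFHS the barcode was not taken to pair libraries. Eef1a1, Eef1b2, Eif5a and Pabpc1 lie above 0 and Gspt1 and Eef1g below 0 in all 5 barcodes, while Etf1 spreads from 0.290-fold to 2.16-fold.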

How the data were processed

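The deposited table holds raw counts of footprints per gene, not normalized by the authors as the values show (whole numbers, unequal totals). Per the labels' protocols, each lysate came from 200 mg of liver, footprints were cut from gels loaded with 10 µg of RNA, and adaptors held the sample barcode and a molecular identifier of 8 nt. Reads were handled with cutadapt 3.5 and Bowtie2, per the submitters' processing notes. Not given in the sources used here: genome build, annotation, strand setting, use of the identifiers and treatment of multiply mapped reads.

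Column names gave class, diet and barcode but no replicate number, so columns were placed in groups. Fits used edgeR 4.0.16 in R 4.3.3 with filterByExpr at a minimum count of 10, TMM, robust quasi-likelihood fits, two-sided F-tests and Benjamini-Hochberg adjustment over all genes tested, with a threshold of 0.05. All 10 genes passed the filter in all 5 comparisons. The SE is the log2 fold change divided by the square root of F. Each fit has its own scaling, so fold changes differ a little from ratios of the printed levels. DESeq2 1.42.0 was an alternative. The fitting code was tested on simulated data.

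Every one of the 10 genes was named in every comparison, by rule. The genes and lists were chosen with earlier results of these data known. Lists of other translation factors and of cell type markers were not analysed here, because 0 of 49997 genes in the RefSeq table (GRCm38.p6) carry an Ensembl identifier. For the same reason the liver label was not checked against markers. Deviations from group means of disome and monosome libraries of a barcode correlated at r = 0.822 (AGCTA), 0.644 (ATCGT) and 0.641 (CGTAA) in chow. Unlike barcodes correlated at 0.515 (disome ATCGT, monosome CGTAA) and 0.501 (disome CGTAA, monosome ATCGT). As AGCTA was unlike the rest, deviations from a mean that holds it tie ATCGT and CGTAA to each other. The barcode was taken to pair the chow libraries as an alternative fit, but for ATCGT and CGTAA the pairing is only weakly shown. In HFHS the libraries of a barcode correlated at 0.0688 and 0.235, and the barcode was not taken to pair them. Shares and Wilson intervals cover counting error only.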

Additional observations from a re-analysis of the deposited data

How the results depend on the processing

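Over 638 alternative values for the 10 genes, 576 kept their direction and their side of the threshold, 13 passed it newly, 10 no longer passed and 39 changed sign, none of the 39 past the threshold in either state. The cause was not tested except where fewer genes or libraries entered a fit. Sign changes with all libraries in place and no barcode block were small. With DESeq2, Gspt1 in the disome diet comparison stood at -9.71e-05. The difference of diet effects of Eif5a stood at -0.0104 with no filter and -0.0194 at a minimum count of 50. In chow, disomes over monosomes stood at -0.11 for Eef2 and -0.0199 for Eef1d with no filter. With all libraries in 1 fit, Eef2 stood at -0.0111 there. The barcode block also turned Eef1g in HFHS, from 0.15 to -0.073.

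Leaving out 1 library at a time moved diet values in monosomes from -0.40 to 0.12 for Eef1a1 and from -0.33 to 0.19 for Eef1b2, the highest of each without GATCA. In disomes they ran from -0.0703 to 0.24 for Eef1a1, -0.27 to 0.12 for Eef2, -0.0697 to 0.38 for Eef1b2, -0.055 to 0.22 for Eef1g, -0.99 to 0.38 for Etf1 and -0.22 to 0.20 for Gspt1. The difference of diet effects ran from -0.0164 to 0.59 for Eef1b2, -0.14 to 0.43 for Eef1d, -0.11 to 0.20 for Eif5a, -0.43 to 0.98 for Etf1 and -0.0571 to 0.39 for Gspt1. Disomes over monosomes in HFHS ran from -0.0613 to 0.40 for Eef1g, -0.0525 to 0.53 for Eef1d, -0.59 to 0.81 for Etf1 and -0.22 to 0.0779 for Eif4a1, and in chow from -0.24 to 0.19 for Eef2 and -0.52 to 0.27 for Etf1.

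Counts of the 10 genes called, with 1 library left out, ran from 0 to 1 for lower on HFHS in monosomes, from 0 to 3 for higher in disomes than monosomes in HFHS, and from 1 to 3 for the same in chow. In chow, 1 was called higher and 1 lower with no filter, 1 lower at a minimum count of 50, and 1 higher and 1 lower with all libraries in 1 fit. Over all genes, counts with 1 library left out ran from 85 to 203 higher and 57 to 117 lower for diet in monosomes (204 and 110 with all), from 20 to 32 and 18 to 26 in disomes (51 and 32 with all), and from 425 to 825 and 555 to 861 for disomes over monosomes in HFHS (854 and 1010 with all). DESeq2 called 56 lower for diet in monosomes, 16 higher and 10 lower in disomes, and 611 lower for disomes over monosomes in HFHS. No filter and all libraries in 1 fit each called 21 lower for diet in disomes. A minimum count of 50, which tests fewer genes, called 125 higher for diet in monosomes, and 412 higher and 486 lower for disomes over monosomes in chow.

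With the barcode as a replicate block, the chow fit called 1145 genes higher and 1191 lower, and changed no call of the 10 genes there but that of Eef1b2. In HFHS, where the barcode was not taken to pair libraries, it called 945 higher and 1089 lower, put Eef1a1 past the threshold at 0.78 (edgeR adjusted p = 7.52e-16), and turned Eef1g to -0.073. In the difference of diet effects it called 7 genes lower, none of the 10 here, whose median was 0.09 (0.34 with no block). No paired analysis was possible because the diets share no barcode for the comparisons of HFHS with chow, and the columns carry no replicate number. Outside the 10 most abundant genes, the share of counts of the 10 genes was 1.07% in HFHS disomes, 1.06% in chow disomes, 0.606% in HFHS monosomes and 0.742% in chow monosomes.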
